A study of Coturnix japonica with 54 samples.

Results

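Male Japanese quail (Coturnix japonica) were compared at the same day length, 12 h of light, reached from opposite directions, by sequencing the RNA of the pituitary gland. The comparison takes the 6 birds with the treatment label 12Lv and the 6 birds labelled 12La, 12 of the 54 birds of the series. All 54 birds started in a long-day photoperiod of 16 h of light and went through a simulated annual cycle, lowered in steps of 2 h to 8 h (groups marked a, autumn-like) and raised again (groups marked v, spring-like), with 2 weeks at each step and 6 birds sampled at each of 9 points. The 12Lv birds had come from 10 h of light and the 12La birds from 14 h. The 12Lv birds were sampled later in the same sequence, so that direction of change, age and time in the experiment cannot be told apart. Polyadenylated RNA of each gland was made into cDNA and sequenced on Oxford Nanopore flow cells, with 1 barcoded library per bird.

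The Japanese quail breeds on long days and its gonads regress on short days. Gonadotrophs, the pituitary cells that drive the gonads, make luteinising and follicle-stimulating hormone, which share the alpha subunit encoded by CGA and differ in their beta subunits, that of follicle-stimulating hormone being encoded by FSHB. Thyrotrophs use the same alpha subunit with TSHB to make thyroid-stimulating hormone, while lactotrophs make prolactin (PRL) and corticotrophs process the precursor encoded by POMC.

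The libraries were shallow. Counting the transcript with the most reads of each gene, a library held between 4825 and 45196 counts at 12Lv (median 13760) and between 6867 and 77709 at 12La (median 31413), so that 1 count was worth 22.1 to 207 CPM (counts scaled to a library total of 1000000) at 12Lv and 12.9 to 146 CPM at 12La. Between 958 and 6441 genes were detected per bird at 12Lv and between 819 and 9753 at 12La. The libraries of 12Lv replicates 1 and 6 (1567 and 958 genes) and of 12La replicate 6 (819 genes) stood apart, with under 2000 genes detected, and results are given with and without them. The endocrine identity of the tissue was clear in every bird: PRL, POMC, CGA and CHGA, the gene of the granule protein chromogranin A, had counts in all 12 libraries. GH and LHB, the other hormone genes looked for, were not found under those symbols among the deposited counts and were not analysed here. In whole glands, fewer cells of a type and less RNA per cell cannot be told apart.

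At 12Lv, 4 protein-coding genes were higher and 3 were lower. The higher ones were CGA, FSHB and the loci LOC107319226 and LOC107310337, which have no symbol, and the lower ones were COL1A2, SPARC and MBP. In all, 4 of 1460 genes tested were higher (0.274%) and 3 were lower (0.205%) at an adjusted p below 0.05 by edgeR's quasi-likelihood test with Benjamini-Hochberg adjustment. At an unadjusted p below 0.05, 18 genes were higher (1.23%) and 56 lower (3.84%). The median log2 fold change over all genes tested was -0.21, with 33.9% of genes above 0 and 66.1% below. It was -0.05 with another scaling (relative log expression), so that small negative values are close to the shift of the whole table.

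**Figure D1:**
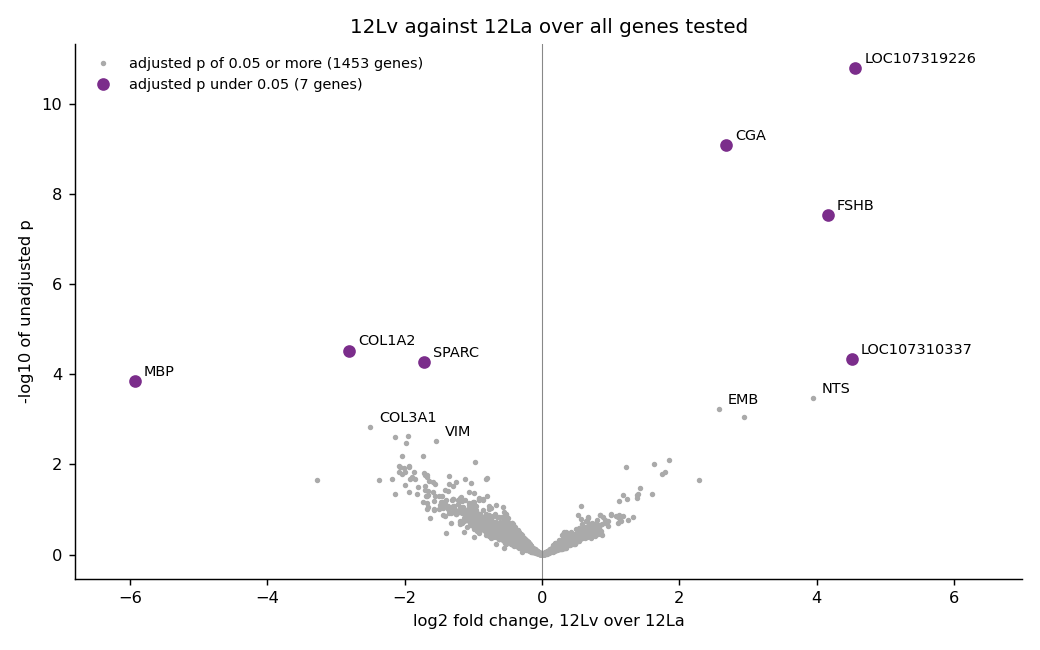
Fold change and test result of each of the 1460 genes tested. The x axis is the log2 fold change of 12Lv over 12La and the y axis is -log10 of the unadjusted p of edgeR's quasi-likelihood test; large points are the 7 genes past the adjusted threshold of 0.05. CGA, FSHB, LOC107319226 and LOC107310337 lie to the right, and COL1A2, SPARC and MBP to the left; the position of LOC107310337, which had no count at 12La, depends on the prior count of the fit.

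Among the hormone genes, CGA and FSHB carried the clearest difference. CGA ranged from 10809 to 31330 CPM at 12Lv (median 14116), against 1447 to 3212 CPM at 12La (median 1955). The lowest 12Lv bird was thus well above the highest 12La bird. CGA averaged 16471 ± 7486 CPM at 12Lv and 2229 ± 729 CPM at 12La (SD, n = 6 each), a log2 fold change of 2.68 ± 0.42 (SE; edgeR adjusted p = 6.00e-07). Without 12Lv replicate 5, the highest bird, the 12Lv mean was 13500 ± 1954 CPM (SD, n = 5), still above every 12La bird.

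FSHB ranged from 735 to 3695 CPM at 12Lv (median 1510), against 0 to 180 CPM at 12La (median 44.2). It was detected in 6 of 6 birds at 12Lv, with 262 counts in all, and in 3 of 6 birds at 12La, with 21 counts, and the groups did not overlap. FSHB averaged 1851 ± 1058 CPM at 12Lv and 62.8 ± 75.3 CPM at 12La (SD, n = 6 each), a log2 fold change of 4.16 ± 0.62 (SE; edgeR adjusted p = 1.45e-05). Among the 1460 genes tested, CGA, FSHB and NTS were the 3 (0.205%) for which every 12Lv bird was above every 12La bird, and no gene had every 12Lv bird below every 12La bird.

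The fold change of FSHB had the larger estimate, and the ratio of FSHB to CGA describes the same difference within each bird. Per 100 counts of CGA, FSHB had 7.79, 5.33, 13.1, 22.3, 11.8 and 9.57 counts in 12Lv replicates 1 to 6, against 0, 7.50, 5.06, 8.92, 0 and 0 in 12La replicates 1 to 6. In 4 of 6 birds at 12Lv the ratio was above all 12La birds, and in the other two it lay within their range. The mean ratio was 11.7 ± 5.91 at 12Lv and 3.58 ± 4.11 at 12La (SD, n = 6 each), given without a test because the ratio was chosen after the values of both genes were seen. The 3 zeros at 12La came from birds with 29, 113 and 21 counts of CGA, so the ratio there rests on few reads.

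**Figure D2:**
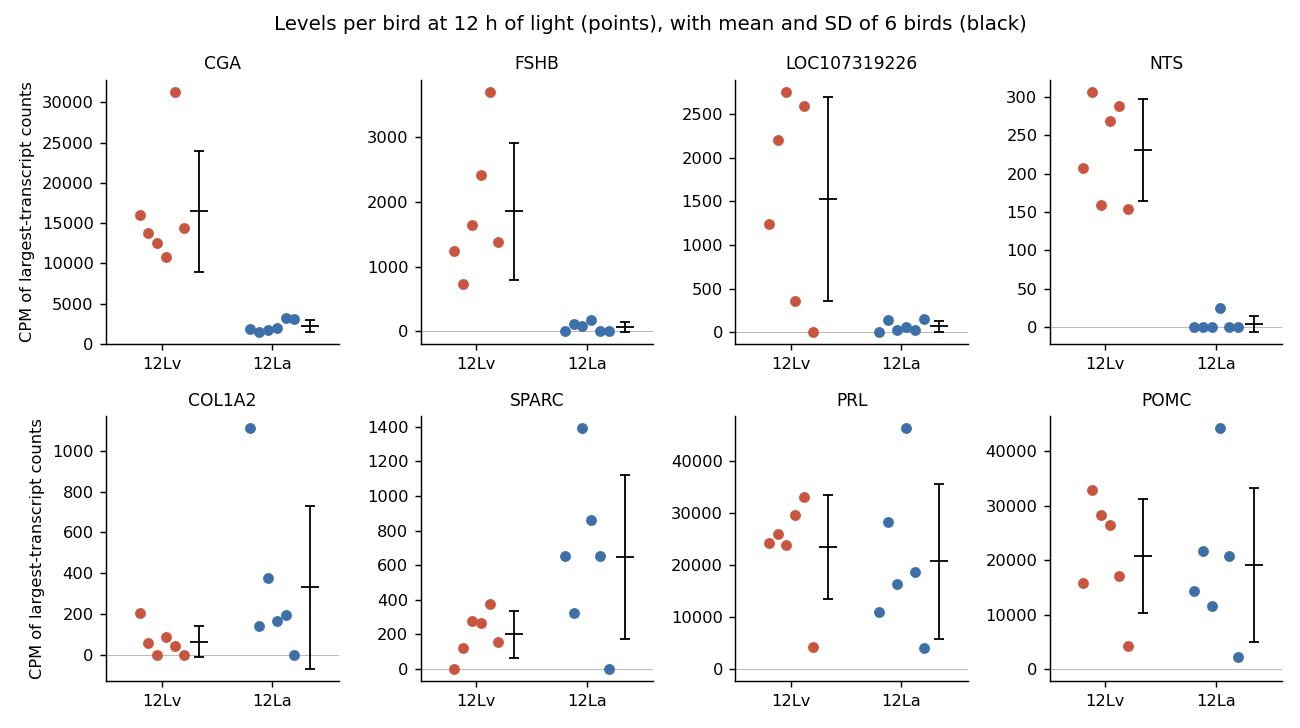
Level of 8 genes in each bird at 12Lv (left, spring-like) and 12La (right, autumn-like), in CPM of largest-transcript counts on linear axes; points are birds and black bars are the mean and SD of 6 birds. The groups are apart for CGA, FSHB and NTS and apart but for 1 bird for LOC107319226, while COL1A2 and SPARC are lower at 12Lv with overlap, and PRL and POMC overlap throughout.

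The other hormone genes gave no such separation. PRL ranged from 4304 to 33078 CPM at 12Lv (median 25080), against 3932 to 46262 CPM at 12La (median 17511). Its lowest value at 12Lv and its lowest at 12La both came from a shallow library, replicate 6 of each group. The log2 fold change of PRL was -0.06 ± 0.43 (SE), with a 95% interval of -0.90 to 0.78 that leaves room for a change of either sign, and the edgeR adjusted p was 0.999.

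POMC ranged from 4151 to 32894 CPM at 12Lv and from 2184 to 44229 CPM at 12La, with a log2 fold change of -0.10 ± 0.54 (SE). TSHB, with 15 counts at 12Lv and 29 at 12La, averaged 81.9 ± 83.4 CPM at 12Lv and 125 ± 102.4 CPM at 12La (SD, n = 6 each). Its log2 fold change was -0.27 ± 0.60 (SE) and the edgeR adjusted p of both genes was 0.999. Of the 5 hormone genes tested, 2 were thus higher and none lower, where 0.274% of all genes were higher and 0.205% lower. Their median log2 fold change was -0.06, against -0.21 over all genes.

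LOC107319226, a protein-coding locus that RefSeq (Coturnix japonica 2.1) lists between BBS2 and NUP93, had the smallest p of all genes. It ranged from 0 to 2755 CPM at 12Lv (median 1724), against 0 to 146 CPM at 12La (median 46.4). Of the 12Lv birds, 5 of 6 lay above every 12La bird. The exception, 12Lv replicate 6, had 0 counts in a library where 3 counts are worth 461 CPM. The means were 1525 ± 1173 CPM at 12Lv and 67.5 ± 63.6 CPM at 12La (SD, n = 6 each), with a log2 fold change of 4.56 ± 0.56 (SE; edgeR adjusted p = 2.39e-08). On log2 of the deposited CPM plus 1, limma kept the direction (3.44) and not the call (adjusted p = 0.904).

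LOC107310337, a protein-coding locus next to CA3, was seen in 2 of 6 birds at 12Lv, with 8 counts each in replicates 3 and 5, and in none at 12La. Its pooled 12Lv level of 147 CPM was 10.2-fold the floor of 3 counts over the 12La group, 14.4 CPM (edgeR adjusted p = 0.0133). The counting error of the 16 counts at 12Lv and the spread among birds are not in this figure, so it is no lower bound. Without 12Lv replicate 3 the pooled level was 6.60-fold the floor (adjusted p = 0.106), and without replicate 5 it was 8.68-fold (adjusted p = 0.121). The call was also lost without 12La replicate 4 (adjusted p = 0.0860).

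NTS, the gene of the peptide neurotensin, stood just outside the threshold. It had 207, 306, 160, 268, 288 and 154 CPM in 12Lv replicates 1 to 6, against 25.7 CPM in 12La replicate 4 and 0 in the other 12La birds. Every 12Lv bird was above every 12La bird, on 27 counts at 12Lv and 2 at 12La. The separation includes single counts in 12Lv replicates 1 and 6, shallow libraries in which 3 counts are worth 622 and 461 CPM. The pooled ratio of 12Lv over 12La was 25.7, with an exact 95% interval for counting error of 6.47 to 223. The fitted log2 fold change was 3.94 ± 1.02 (SE; edgeR adjusted p = 0.0616). NTS passed with relative log expression scaling (adjusted p = 0.0133), without the filter on low counts (0.00836), with a fit of the 12 birds alone (8.09e-05) and with DESeq2 (0.0264). It did not pass with the library total as a covariate (0.0748), with limma (0.0683), without the libraries with under 2000 genes (0.322) or in any of the 12 fits that left out 1 bird (0.0597 to 0.297).

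Among the next genes by p in the higher direction, none passed. EMB, which encodes the membrane glycoprotein embigin, averaged 129 ± 133 CPM at 12Lv and 12.5 ± 19.3 CPM at 12La (SD, n = 6 each; log2 fold change 2.58 ± 0.74, SE; edgeR adjusted p = 0.0970). PPP1R1C, a regulatory inhibitor subunit of protein phosphatase 1, had 14 counts in 3 birds at 12Lv and 2 counts in 2 birds at 12La, a pooled ratio of 13.3 (exact 95% interval 3.07 to 121; edgeR adjusted p = 0.128). NELL2, a secreted neural protein with EGF-like domains, had the most counts of these genes, with 934 ± 514 CPM at 12Lv and 328 ± 251 CPM at 12La (SD, n = 6 each).

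The log2 fold change of NELL2 was 1.22 ± 0.47 (SE; edgeR adjusted p = 0.668). FKBP5, a co-chaperone of steroid receptors, had a log2 fold change of 1.75 ± 0.73 (SE). ESD, PSMA2, PITPNB, HIPK3 and TMEM230 had log2 fold changes between 1.39 and 1.79, and with FKBP5 their edgeR adjusted p values lay between 0.668 and 0.952. Without the libraries with under 2000 genes, EMB (2.88; adjusted p = 0.0367) and NELL2 (1.45; adjusted p = 0.0432) passed.

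Regulators of the gonadotroph were looked at beside its hormone genes. Of 7 tested genes of this list, 0 were past the threshold, and 6 had a positive and 1 a negative log2 fold change. Of all genes 33.9% were above 0, and the list's median was 0.26, against -0.21 over all genes. With limma on deposited CPM the signs were 3 and 4, with a median of -0.11, against -0.79 over all genes in that fit. Without 12Lv replicate 3 or 4 they were 4 and 3, with medians of 0.30 and 0.09, against -0.25 and -0.15 over all genes. With no filter on low counts they were 5 and 2, with a median of 0.06, against -0.28. NR5A1, the orphan receptor steroidogenic factor 1, had 0.33 ± 0.65 and PITX1, a pituitary homeobox factor, 0.74 ± 0.76 (SE). EGR1, an immediate early transcription factor that acts on the LHB promoter in mammals, had 25 counts at 12Lv, all in replicates 3 (599 CPM) and 5 (221 CPM), against 7 counts in 3 birds at 12La. Its fitted log2 fold change of 2.29 ± 0.97 (SE; edgeR adjusted p = 0.696) rests on these 2 birds, the same 2 that held all counts of LOC107310337 at 12 h. Their libraries were the deepest of the 12Lv group (25046 and 45196 counts). The deepest at 12La, replicates 3 and 4 (45286 and 77709 counts), had 2 and 4 counts of EGR1 and 0 of LOC107310337. What part depth has in these counts was not tested.

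SPARC and COL1A2, both genes of the extracellular matrix, were lower at 12Lv. SPARC encodes osteonectin, a matrix glycoprotein that binds collagen, and COL1A2 a chain of type I collagen. SPARC ranged from 0 to 376 CPM at 12Lv (median 211), against 0 to 1391 CPM at 12La (median 653). All 6 birds at 12Lv were below the 12La median, and the only 12La bird under the 12Lv median was the shallow replicate 6, with 0 counts. SPARC averaged 200 ± 134 CPM at 12Lv and 647 ± 474 CPM at 12La (SD, n = 6 each), a log2 fold change of -1.72 ± 0.42 (SE; edgeR adjusted p = 0.0133).

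COL1A2 ranged from 0 to 207 CPM at 12Lv (median 52.8), against 0 to 1108 CPM at 12La (median 183). Of the 12Lv birds, 5 of 6 lay below the 12La median, on 5 counts at 12Lv and 58 at 12La. COL1A2 averaged 67.02 ± 77.1 CPM at 12Lv and 332 ± 399 CPM at 12La (SD, n = 6 each), a log2 fold change of -2.81 ± 0.66 (SE; edgeR adjusted p = 0.0110). Both calls depend on single birds. COL1A2 was lost without 12La replicate 1 (-2.16; adjusted p = 0.242) or 12Lv replicate 3 or 5 (0.0892 and 0.0730), and SPARC without 12La replicate 3 (-1.30; adjusted p = 0.482) or 12Lv replicate 1, 2, 3 or 4 (0.0766 to 0.111).

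The other 5 tested fibroblast and matrix genes did not pass. All 7 tested members had a negative log2 fold change, also in each alternative fit that tested all 7, with a median of -1.55, against -0.21 and 66.1% below 0 over all genes. Of the 7, 2 were lower (SPARC and COL1A2; 0.205% of all genes), 0 were higher, and 4 had a negative value at an unadjusted p below 0.05 (3.84% of all genes). COL3A1, the chain of type III collagen, had 3 counts at 12Lv and 31 at 12La, a pooled ratio of 0.185 (exact 95% interval 0.0361 to 0.592; edgeR adjusted p = 0.199). VIM, the gene of the intermediate filament vimentin, averaged 153 ± 101.4 CPM at 12Lv and 361 ± 156 CPM at 12La (SD, n = 6 each; log2 fold change -1.55 ± 0.52, SE; edgeR adjusted p = 0.316). DCN (decorin), MGP (matrix Gla protein) and S100A11 were closer to the median of all genes, with log2 fold changes of -0.35 ± 0.58, -0.52 ± 0.62 and -0.91 ± 0.65 (SE).

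Most members were below the filter and can be described by counts alone. Of the 26 members in the table, 21 had a lower and 4 a higher mean CPM at 12Lv, and DPT had no count at either. The share of all genes with a lower mean CPM was not computed, so these numbers have no background to be set against. The 12Lv libraries held 109091 counts in all and the 12La libraries 208031, which also bears on the raw counts below. COL1A1, the partner chain of COL1A2, had 2 counts in 1 bird at 12Lv and 30 counts in 5 birds at 12La. TAGLN and ACTA2, smooth muscle and myofibroblast genes, had 0 counts at 12Lv against 14 and 10 counts at 12La, and COL14A1 had 0 against 12. The 4 with the higher mean at 12Lv were FBN1, COL6A1, POSTN and MGP. For MGP the mean CPM (154 at 12Lv, 147 at 12La) and the fitted log2 fold change (-0.52) point opposite ways.

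Summed over the 26 members, matrix transcripts made up 615 to 1429 CPM at 12Lv (mean 1083 ± 279, SD, n = 6), against 582 to 5279 CPM at 12La (mean 2853 ± 1597, SD, n = 6). All 12Lv birds lay below 5 of the 12La birds (2134 to 5279 CPM), and the remaining 12La bird, replicate 6 with 582 CPM, is the library with 819 genes detected. Without it the 12La mean was 3307 ± 1281 CPM (SD, n = 5). It was left out after its value was seen. The shallow 12Lv replicates 1 and 6 (1244 and 615 CPM) stayed in the 12Lv mean. The other genes by p in the lower direction included IGFBP5, a secreted binding protein of insulin-like growth factors (-2.14 ± 0.70, SE), NDRG1 (-1.98 ± 0.67) and MDK, the growth factor midkine (-2.04 ± 0.74), with edgeR adjusted p values of 0.282, 0.335 and 0.564.

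**Figure D3:**
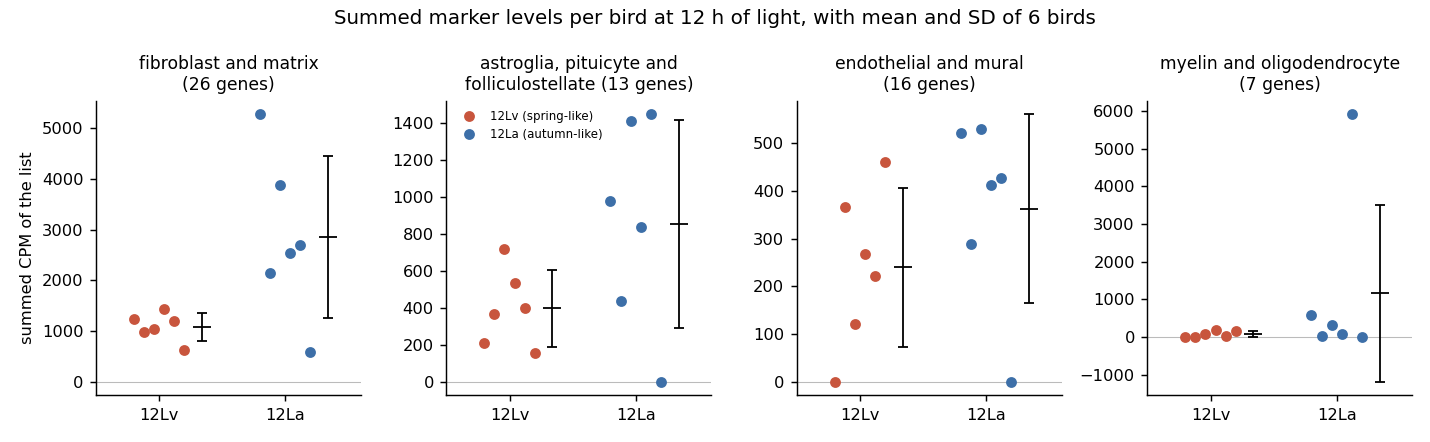
Summed level of marker lists of other cell types in each bird at 12Lv (left) and 12La (right), in CPM of largest-transcript counts; points are birds and black bars the mean and SD of 6 birds. All 12Lv birds (615 to 1429 CPM) are below 5 of the 12La birds (2134 to 5279 CPM) for matrix genes, and myelin genes reach 5912 CPM in 1 bird, 12La replicate 5.

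Among markers of nervous and glial tissue only MBP was past the threshold, through 1 bird. MBP, myelin basic protein, had 1 count at 12Lv (154 CPM in replicate 6) and 159 counts at 12La, of which 153 (4349 CPM) were in replicate 5. The pooled ratio of 12Lv over 12La was 0.0120 (exact 95% interval for counting error 3.02e-04 to 0.0678; edgeR adjusted p = 0.0295). Without 12La replicate 5 the other 5 birds averaged 22.8 ± 38.3 CPM (SD, n = 5), and the gene did not pass (log2 fold change -1.51; adjusted p = 0.994). The call was also lost without 12Lv replicate 1, 2, 3, 4 or 5 (0.0597 to 0.223) and without the 3 shallow libraries of these groups and the 6 of the others (0.124).

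The same bird held myelin transcripts as a class. All 7 measured genes of the myelin list had counts in 12La replicate 5, with 208 counts and 5912 CPM in sum. The list's sum was 0 to 179 CPM at 12Lv and 0 to 587 CPM in the other 12La birds. Matrix genes in 12La replicate 5 stood at 2700 CPM, within the range of the other 12La libraries with over 2000 genes.

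Glial genes shared with the pituicytes of the neural lobe and the folliculostellate cells of the anterior lobe made up 154 to 719 CPM at 12Lv and 0 to 1450 CPM at 12La, over 13 genes. All 4 tested members had negative log2 fold changes, where 66.1% of all genes were below 0. Their median was -1.46, against -0.21 over all genes, and 0 passed, where 0.205% of all genes were called lower. SLC1A3, a glial glutamate transporter, had 2 counts at 12Lv and 19 at 12La, a pooled ratio of 0.201 (exact 95% interval for counting error 0.0227 to 0.832). FABP7, the brain fatty acid binding protein, had 3 and 22, a ratio of 0.260 (0.0498 to 0.866). The edgeR adjusted p, which takes in the spread among birds, was 0.696 for SLC1A3 and FABP7. The other tested members, CLU and GLUL, had more counts, 29 and 10 at 12Lv against 88 and 31 at 12La. Their log2 fold changes were smaller, -0.77 ± 0.44 and -0.88 ± 0.65 (SE; edgeR adjusted p = 0.985 for both). Immune markers summed to 0 to 184 CPM at 12Lv and 0 to 265 CPM at 12La. CD74, the invariant chain of class II antigen presentation and the only immune marker tested, had 3 counts at 12Lv and 26 at 12La (ratio 0.220; exact 95% interval 0.0426 to 0.718; edgeR adjusted p = 0.668), while C1QB had 3 counts at 12Lv and 1 at 12La and C1QA 1 at each. Neuronal markers summed to 179 to 679 CPM at 12Lv and 291 to 1722 CPM at 12La. The 2 tested, STMN2 and MAP2, had a median log2 fold change of -0.89 and 0 passed, and MAP2 was positive with limma (0.17). NEFL, untested, had 4 counts in 3 birds at 12Lv and 6 counts in 2 birds at 12La, or 36.7 and 28.8 CPM of the pooled counts. Its mean over birds was 83.0 ± 164 CPM at 12Lv, where the highest bird had 415 CPM, and 15.9 ± 24.8 CPM at 12La (SD, n = 6 each). Endothelial markers summed to 0 to 461 CPM at 12Lv and 0 to 530 CPM at 12La. Erythroid and skeletal muscle markers reached at most 79.9 and 111 CPM at 12Lv, and at most 171 and 56.9 CPM at 12La. What part the glial and myelin levels have in the lower matrix genes was not tested.

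With 0.274% of all genes called higher and 0.205% lower, few calls could fall in the lists of general secretory and metabolic genes, and their 0 calls say little about them. Of 9 tested genes of secretory granules and hormone processing, 13 of exocytosis, 39 of translocation and folding in the endoplasmic reticulum, 29 translation factors, 14 proteasome subunits, 76 cytosolic ribosomal proteins and 48 nuclear-encoded subunits of oxidative phosphorylation, 0 passed in each list. Their median log2 fold changes were -0.36, -0.13, -0.01, -0.18, -0.13, -0.11 and -0.00 in that order, against -0.21 over all genes. CHGA averaged 11368 ± 6299 CPM at 12Lv and 10976 ± 6108 CPM at 12La (SD, n = 6 each), with the birds overlapping.

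The same holds for the lists of clock and stress genes, in which 0 genes passed. All 6 tested clock genes had negative log2 fold changes, with a median of -0.44, where 66.1% of all genes were below 0, while 1 of them was positive with relative log expression scaling, 2 with DESeq2 and 3 with the library total as a covariate. The one with the smallest p was TEF, a PAR bZIP factor that follows the clock, with 3 counts in 1 bird at 12Lv and 21 counts at 12La. Its pooled ratio was 0.272 (exact 95% interval for counting error 0.0520 to 0.912; edgeR adjusted p = 0.696). Of 10 immediate early and stress genes 3 were positive and 7 negative, and of 13 metal, redox and thiol genes 4 were positive and 9 negative, with medians of -0.44 and -0.43. The 5 tested genes of steroid and thyroid receptors and their co-chaperones had a median of 0.40. With limma it was -0.68, against -0.79 over all genes in that fit. The 5 regulators of other endocrine cells had a median of -0.17 and the 3 cell cycle genes one of -0.51, with 0 calls in each of these lists.

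The spring-over-autumn difference was then set against that at the other day lengths sampled in both arms. At 16 h it compares the end of the cycle with its start, since all birds started at 16 h. That pair was therefore not reached from opposite directions. For CGA the log2 fold change of spring over autumn was 1.18 ± 0.40 at 10 h, 2.68 ± 0.42 at 12 h, -0.60 ± 0.39 at 14 h and -0.60 ± 0.39 at 16 h (SE). The estimates were thus above 0 at 10 and 12 h and below 0 at 14 h, and below 0 between end and start at 16 h. CGA passed the test only at 12 h (edgeR adjusted p of 0.997, 0.985 and 0.889 at 10, 14 and 16 h). For FSHB it was 2.13 ± 1.06, 4.16 ± 0.62, -1.61 ± 0.56 and -0.20 ± 0.60 in the same order of day length. LOC107319226 had -0.13 ± 1.09, 4.56 ± 0.56, -1.39 ± 0.43 and -1.07 ± 0.45 in the same order, a value near 0 at 10 h with a wide error. FSHB did not pass at 10, 14 or 16 h (edgeR adjusted p of 0.997, 0.676 and 0.964), nor did LOC107319226 (0.997, 0.497 and 0.790).

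**Figure D4:**
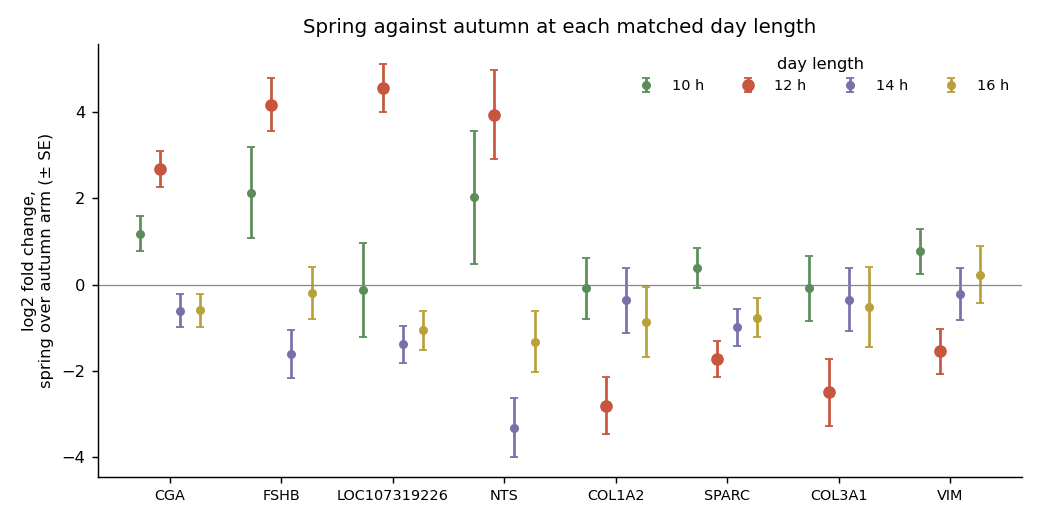
Log2 fold change of the spring-like over the autumn-like arm at 10, 12, 14 and 16 h of light for 8 genes, with SE from the fit of all 54 birds. The line at 0 marks equal levels, and the 16 h value compares the end of the cycle with its start. CGA, FSHB, LOC107319226 and NTS are above 0 at 12 h (2.68, 4.16, 4.56 and 3.94) and below 0 at 14 h (-0.60, -1.61, -1.39 and -3.32). Of these 14 h values only that of NTS passed (edgeR adjusted p = 0.0174).

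The difference between day lengths was tested directly for every gene. The 12 h difference exceeded the 14 h one in 4 of 1460 genes (0.274%), and fell below it in 0 (edgeR; 69 genes in all had an unadjusted p below 0.05). The 4 genes were LOC107319226 (5.95 ± 0.71 on the log2 scale, SE; adjusted p = 1.08e-08), FSHB (5.78 ± 0.83; 1.09e-05), CGA (3.28 ± 0.57; 1.09e-05) and NTS (7.26 ± 1.22; 1.10e-04). For NTS the autumn birds were higher at 14 h, with 79.5 ± 71.7 CPM at 14Lv and 804 ± 774 CPM at 14La (SD, n = 6 each; log2 fold change -3.32 ± 0.68, SE; edgeR adjusted p = 0.0174). These tests share the 12Lv and 12La birds with the comparison at 12 h.

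Against the 10 h difference, 0 genes passed by edgeR (47 at an unadjusted p below 0.05), 0 by limma and 1 by DESeq2. That gene was LOC107319226, with a difference of 4.69 ± 1.32 (SE; edgeR adjusted p = 0.697, DESeq2 adjusted p = 0.0296). CGA had a difference of 1.50 ± 0.57, and FSHB one of 2.03 ± 1.53, whose error is as wide as the few counts at 10 h allow. SPARC had a difference of -2.10 ± 0.63 and VIM one of -2.32 ± 0.74 (SE; edgeR adjusted p = 0.697 and 0.908). Against the 14 h difference these were -0.73 ± 0.62 and -1.33 ± 0.82 (SE; edgeR adjusted p = 0.995 for both). The log2 fold changes of SPARC were 0.38 ± 0.46, -1.72 ± 0.42, -0.99 ± 0.43 and -0.77 ± 0.46 at 10, 12, 14 and 16 h (SE). The SPARC estimate was thus also below 0 at 14 h, and at 16 h between the end and the start of the cycle. Neither was a call (edgeR adjusted p = 0.985 and 0.889). COL1A2 had log2 fold changes of -0.09 ± 0.71, -2.81 ± 0.66, -0.37 ± 0.74 and -0.87 ± 0.81 at 10, 12, 14 and 16 h.

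The means over the whole cycle place these levels among the other photoperiods. In the autumn arm CGA stood at 16092 ± 6255 CPM on 14La days, 2229 ± 729 on 12La days and 2427 ± 1279 on 10La days, with 2876 ± 684 on 8L days (SD, n = 6 each). In the spring arm it stood at 6320 ± 1975 CPM on 10Lv days, 16471 ± 7486 on 12Lv days and 13315 ± 6253 on 14Lv days (SD, n = 6 each). On the longest days it stood at 13364 ± 4114 CPM (16La) and 10309 ± 7604 CPM (16Lv; SD, n = 6 each), and differences between these photoperiods were not tested here. LOC107319226 averaged 1171 ± 394 CPM in 14La birds, had means between 55.7 and 67.5 CPM from 12La through 8L to 10Lv, and averaged 1525 ± 1173 CPM in 12Lv and 591 ± 188 CPM in 14Lv birds (SD, n = 6 each). The 12Lv mean of CGA, FSHB and LOC107319226 was, on this scale, the highest of the 9 photoperiods, above 14La by less than the SD at 12Lv for each of these 3 genes. In deposited CPM the CGA mean was highest at 14La (10170 ± 4439) and next at 12Lv (8384 ± 7185; SD, n = 6 each).

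NTS averaged 804 ± 774 CPM in 14La birds, 4.29 ± 10.5 in 12La birds, 12.3 ± 30.1 in 10La birds and 0 in 8L birds, then 48.1 ± 52.8 in 10Lv birds, 230 ± 66.1 in 12Lv birds and 79.5 ± 71.7 CPM in 14Lv birds (SD, n = 6 each). Its 12Lv mean was below those of 14La and 16La (361 ± 270 CPM; SD, n = 6). SPARC and COL1A2 had their highest means of the cycle at 12La, 647 ± 474 and 332 ± 399 CPM (SD, n = 6 each). In SPARC the 12Lv mean of 200 ± 134 CPM was the lowest of the 9, close to 16Lv (212 ± 154 CPM; SD, n = 6 each), which was the lowest in deposited CPM. In COL1A2 the other photoperiods lay between 50.6 and 124 CPM, with 12Lv at 67.02. Without 12La replicate 1 the 12La mean was 177 ± 134 CPM (SD, n = 5), still the highest of the 9.

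**Figure D5:**
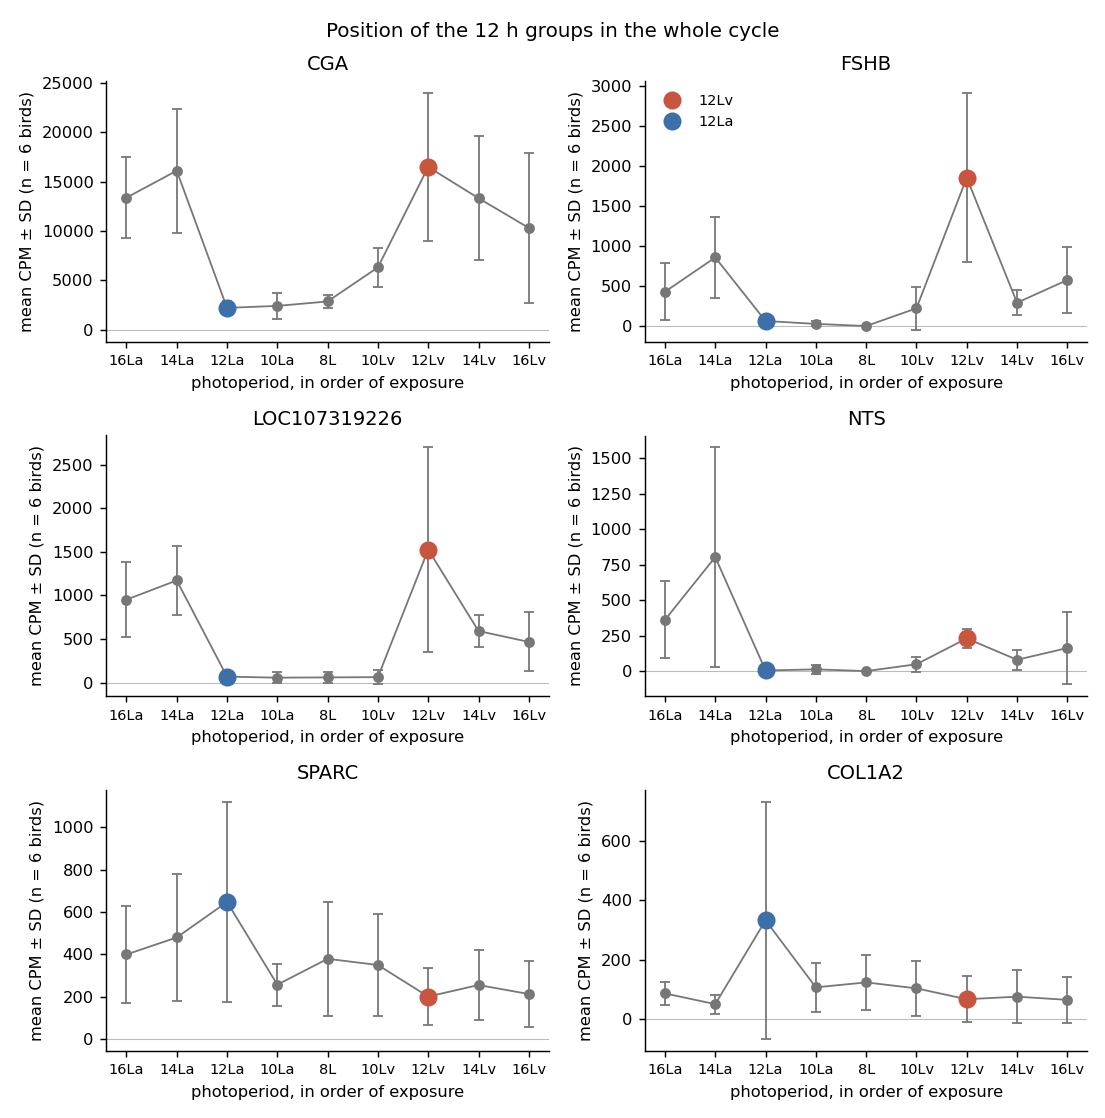
Mean level and SD of 6 birds per photoperiod in CPM of largest-transcript counts, in the order of the cycle from 16La through 8L to 16Lv, with 12La and 12Lv in colour. CGA, FSHB and LOC107319226 are near their low at 12La and highest at 12Lv, and SPARC and COL1A2 are highest at 12La (647 and 332 CPM). For CGA the 14La mean is highest in deposited CPM, and it is above 12Lv once 12Lv replicate 5 is left out.

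Leaving out the 9 libraries of the series with under 2000 genes, 3 of them at 12 h, kept the calls of CGA (log2 fold change 3.01; edgeR adjusted p = 2.39e-08), FSHB (4.39; 1.52e-04), LOC107319226 (5.08; 1.17e-09), COL1A2 (-2.96; 0.0165) and SPARC (-1.57; 0.0367). CGA and FSHB passed in all 9 alternative fits and all 12 fits that left out 1 bird.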

How the data were processed

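Estimated counts per transcript and bird were deposited by the authors for all 54 libraries (40282 transcript rows, 16448 genes), with a table of CPM per gene whose columns sum to between 327092 and 1790364 and which is therefore treated as a normalised signal of the authors. The submitters' processing notes name minimap2 2.17, Salmon 0.14.2 and edgeR 3.24.3; which step each did, and the genome build, is not given in the sources used here. In genes with 2 transcripts, 5354 of 9983 values of at least 3 counts (53.6%) were the same for the pair within 0.01, so the largest transcript count of each gene was used, rounded, in place of the sum (median total 2.03 times larger). CPM in the text is per 1000000 of these counts.

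All 54 birds entered 1 fit with a mean for each photoperiod (45 residual degrees of freedom), tested by robust quasi-likelihood in edgeR 4.0.16 and R 4.3.3 after TMM scaling and filterByExpr at a minimum count of 3. Benjamini-Hochberg adjustment ran over the 1460 genes kept, with calls below 0.05. The SE of a log2 fold change was obtained from its F statistic. The 12 h difference was also set against those at 14 h and 10 h. Ratios of pooled counts have exact 95% Clopper-Pearson intervals, which like the floor of 3 counts cover counting error only. On simulated data for this comparison, in which 200 of 1460 genes were altered, 61.3% of 4-fold and 98.3% of 16-fold alterations were called, beside 7.33 false calls per simulation. These numbers depend on how many genes are altered, so they do not carry over to the 7 calls of the real comparison.

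Groups are the treatment labels, and replicate numbers follow the order of deposition and pair no birds. Named genes were the hormone genes, all genes past the threshold, up to 12 more in each direction by p (1 of them not reported here), 7 genes known from earlier results, and 4 members of each list by level. The members and lists were chosen with earlier results of these data known. NR5A1, PITX1, MGP, S100A11, COL1A1, TAGLN, ACTA2, COL14A1, FBN1, COL6A1, POSTN, DPT and the ratio of FSHB to CGA were chosen after their values were seen. So were CRYM with LOC107306902, and VIM and EGR1, which the rules above also name. Alternatives were other counting, filters and scaling, no filter, a fit of the compared groups only, the log2 total as a covariate, DESeq2 1.42.0, limma 3.58.1 on log2 of deposited CPM plus 1, and libraries left out. No sequencing batch is given in the labels used here. Sequences and coordinates are not used here.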

Additional observations from a re-analysis of the deposited data

Results flagged for a closer look

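The spring-over-autumn difference at 12 h exceeded that at 14 h, by a direct test of the difference in edgeR, for CGA (3.28 on the log2 scale), FSHB (5.78), LOC107319226 (5.95) and NTS (7.26). For each of these 4 genes the estimate was positive at 12 h and negative at 14 h. Taken alone, the 14 h difference passed only for NTS (edgeR adjusted p = 0.0174). It did not pass for CGA (0.985), FSHB (0.676) or LOC107319226 (0.497).

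Single birds stood far from the other 5 of their group by Dixon's test in 18 of 98 groups of values examined, where chance gives about 1 in 20 and sparse counts give more, since many birds are at 0. For genes with a call, these were CGA at 31330 CPM in its highest 12Lv bird, COL1A2 at 1108 CPM in its highest 12La bird, and MBP at 154 CPM in its highest 12Lv bird and 4349 CPM in its highest 12La bird. The summed myelin list reached 5912 CPM in the same 12La bird as MBP.

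PRL was lowest at 4304 CPM in 1 bird at 12Lv, a shallow library. EGR1 reached 599 CPM in 1 bird at 12Lv and 146 CPM in 1 bird at 12La, where it is 1 count. U2SURP reached 79.9 CPM in 1 bird at 12Lv and 391 CPM in 1 bird at 12La.

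The other high birds at 12Lv had 120 CPM of TEF and 154 CPM of SLC1A3. The other high birds at 12La had 25.7 CPM of NTS, 36.2 CPM of PPP1R1C, 109 CPM of PSMA2 and 64.3 CPM of HIPK3. TMEM230 was lowest in a 12Lv bird with 0 CPM, and MDK in a 12La bird with 0 CPM.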

How the results depend on the processing

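CGA and FSHB passed in every fit, as did LOC107319226 in all but limma on deposited CPM (adjusted p = 0.904); the cause was not tested. The number of genes higher at 12Lv was 4, between 3 and 5 with 1 bird left out, 2 with limma and 6 without the shallow libraries. The number lower was 3, between 1 and 3 with 1 bird left out, 0 with summed counts, DESeq2 and limma, and 1 with a minimum count of 10 (210 genes tested) and with the library total as a covariate. Against the 14 h difference, 4 genes were higher, between 4 and 7 with 1 bird left out and 8 in a fit of the compared groups only, and 0 lower, 1 with no filter and 1 in the fit of the compared groups. Against the 10 h difference, 0 were higher, between 0 and 1 with 1 bird left out (LOC107319226 without 12Lv replicate 6), 2 in the fit of the compared groups and 1 with DESeq2, and 0 lower in every fit.

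SPARC was lost with summed counts (adjusted p = 0.662), no filter (0.201), the covariate (0.129), DESeq2 (0.202) and limma (0.907), and COL1A2 with no filter (0.0657), DESeq2 (0.202) and limma (0.904). LOC107310337 was lost with DESeq2 (0.943) and limma (0.904), and MBP did not pass in any of the 7 alternatives that tested it (0.0609 to 0.904). Signs turned for values near 0. PRL was 0.15 with summed counts, 0.17 with relative log expression, 0.14 with a minimum count of 10, 0.55 with the covariate, 0.17 with DESeq2, 0.011 with limma and 0.14 without the shallow libraries, and between -0.27 and 0.27 with 1 bird left out. POMC was 0.12, 0.19, 0.14, 0.43 and 0.19 in the first 5 of these fits, 0.11 without the shallow libraries, and between -0.33 and 0.27 with 1 bird left out. TSHB was 0.069 with the covariate, EGR1 -0.11 with limma and MAP2, a neuronal marker, 0.17 with limma. Over 51 genes and contrasts and 1008 refitted values, 939 kept direction and side of the threshold, 36 lost a call, 10 gained one and 23 changed sign. No paired analysis was possible because the birds carry unique numbers that pair no birds across photoperiods. With 1 count worth up to 207 CPM in a 12Lv library, absence of a gene in a bird is not shown by 0 counts.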

Other observations

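CRYM, the gene of a thyroid hormone binding protein, was lower in counts at 12Lv than at 12La, with 3 counts in 1 bird at 12Lv and 47 counts at 12La, of which 35 (773 CPM) were in replicate 3. CRYM and LOC107306902 had equal counts in 54 of 54 birds, so that the counting does not tell the pair apart. EGR1 had 54 counts in 5 birds at 14La, 28 counts at 10La of which 24 were in 1 bird, and 25 counts in 2 birds at 12Lv, so that its level was uneven among birds of a group in other photoperiods as well. LOC107310337 had 43 counts in 17 of the 54 birds.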
